A study of Oncorhynchus mykiss with 38 samples.

Results

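Spawning testes of rainbow trout (stage VIII) were compared with maturing testes (stage V), clone by clone, on nylon cDNA arrays. The members were chosen by title: of the 38 samples of the series, 7 entered the comparison, 3 titled as stage VIII testis and 4 as stage V testis, each on an array of its own, and all 9024 clones with values were compared. The study followed the testis through its yearly cycle and set whole testes beside germ cells isolated by elutriation. According to the methods, the fish were males from an experimental farm, with no treatment named for these groups, and stages were assigned by histology and relative gonad weight. Stage V testes were taken in April and May and held spermatids besides earlier germ cells. Stage VIII testes were taken in October from fish releasing milt and held mainly spermatozoa. Stage and season cannot be told apart in these samples, and ages are not given in the sources used here. The main groups used below for orientation were stage I testes (n = 5), with slowly dividing spermatogonia and somatic cells, and germ cell fractions. The fractions held spermatogonia (n = 6), spermatocytes (n = 6) and spermatids (n = 3), came from pooled testes and were enriched rather than pure. Stage IIb (n = 4), with growing numbers of dividing spermatogonia, and stage IIIb (n = 3), with many spermatocytes, enter a later comparison. Stage IIa (n = 4) is shown in a figure alone.

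In trout, germ cells develop in near synchrony within cysts of Sertoli cells, passing through mitosis, meiosis and the shaping of the sperm cell. Leydig cells, which lie between the tubules, make androgens and progestins under luteinising hormone, and in salmonids a progestin drives milt production around spawning. Spermatozoa have tightly packed chromatin and carry little RNA. In whole testes, fewer cells of a type and less RNA per cell cannot be told apart. The same holds for rises, where a larger share of a cell type and more RNA per cell look alike. The study describes somatic transcripts as diluted by germ cells in maturing testes and no longer so at stage VIII.

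Values are log2 signals, so that a difference of 1 is a doubling, and each change is stage VIII minus stage V. The arrays were quantile normalised, which makes every change relative to the other clones on the array. The median of an array, 8.17, is taken here as background, after the methods, and where all signals of a stage lay under it, the change of a named gene that was called is also given with low signals raised to the median. No source used here says that the arrays of a stage came from different fish. The p-values therefore speak only for the spread among the samples measured, and the number of arrays limits the precision. That spread was estimated within the groups over all 38 arrays of the series, not from the 7 compared arrays alone. Adjusted p-values are from limma over all 9024 clones, and a clone was called when its value was under 0.05.

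Between maturity and spawning, 3378 clones (37.4%) were called: 1635 clones (18.1% of all clones) rose, 1743 (19.3%) fell. Haemoglobins, genes of steroid synthesis and 2 immune genes led the named clones that rose. A flagellar, a meiotic and a germ line gene led those that fell. Changes reached at least 1 in 662 clones that rose and 567 that fell, at least 2 in 116 and 85, and at least 3 in 20 and 11. The median SE of a difference was 0.20, and the median SD of a clone was 0.15 within stage V and 0.21 within stage VIII. The stages did not overlap for 4439 clones (49.2%), with stage VIII higher in 2157 (23.9%) and lower in 2282 (25.3%), among them 1539 of the clones that rose and 1625 of those that fell. The median change over all clones was -0.04. For each gene list below, 18.1% higher and 19.3% lower are the shares of all clones to set beside its counts. Among the 680 clones with a symbol, from which the lists were drawn, the shares were 23.7% and 17.5%. Neither pair of shares is a measure for the groups that were formed after their values were seen.

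**Figure D1:**
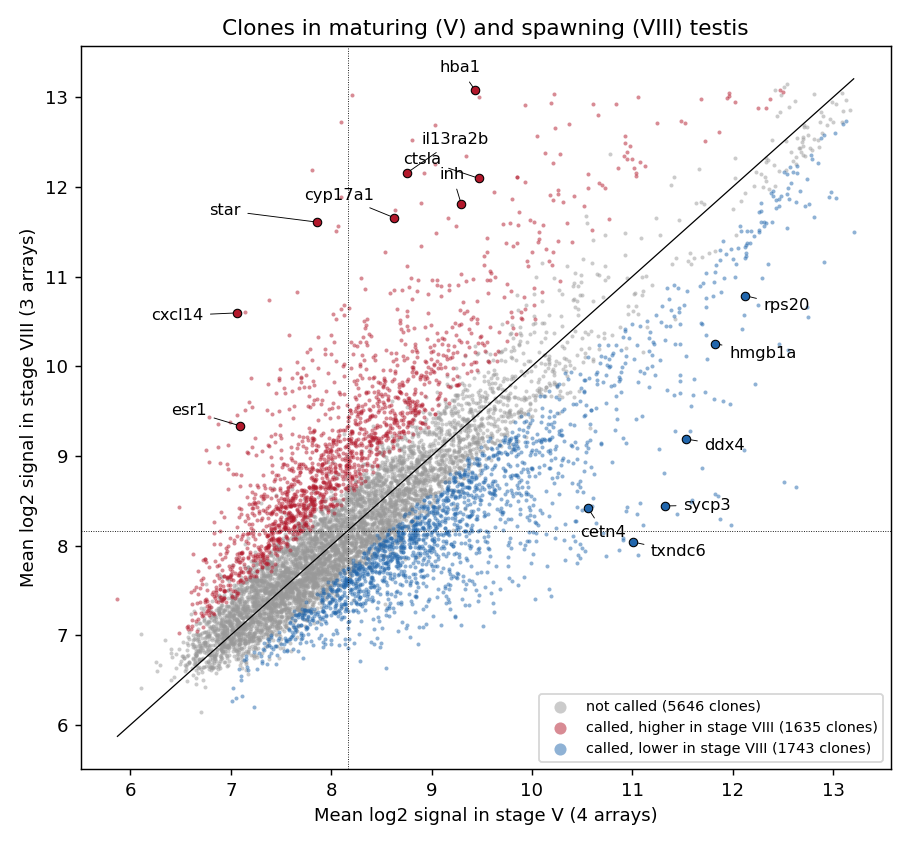
Mean log2 signal of each of 9024 clones in stage V (horizontal axis, 4 arrays) and in stage VIII (vertical axis, 3 arrays), coloured by call, with equality as a solid line and the array median of 8.17 as dotted lines. The 1635 clones that rose lie above the line, star (7.86 and 11.61) among them, and the 1743 that fell below it, txndc6 (11.01 and 8.04) among them.

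Many clones crossed background. Of those that rose, 666 had a mean under the array median in stage V alone, 288 in both stages and 681 in neither. Of those that fell, 663 had a mean under it in stage VIII alone, 265 in both and 815 in neither. The median level of the rising clones went from 7.97 to 8.98, and that of the falling clones from 9.07 to 8.10.

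A symbol was held for 680 clones, of which 161 rose and 119 fell, and the clones of largest change had none. Clone tcbk0013.j.13 read 8.09, 8.13, 8.36 and 8.27 in stage V and 12.98, 12.80 and 13.30 in stage VIII, a rise of 4.82 (SE 0.22, adjusted p = 1.1e-18). Its mean was 7.46 in stage I and no more than 8.16 in the germ cell fractions, so that the spawning arrays stood above every one of these groups. Clones tcbk0026.e.15 and 1rt34l03_b_f02 rose by 4.63 and 4.38. At the other end, tcay0036.l.22 read 12.84, 12.75, 12.79 and 12.16 in stage V and 10.55, 7.94 and 7.46 in stage VIII, a change of -3.99 (SE 0.51, adjusted p = 1.1e-07). One spawning array lay well above the others for this clone, though below each stage V array. Its SD was 1.665 in stage VIII and 0.319 in stage V, while the SE rests on the spread in all groups. Spermatocytes and spermatids had means of 12.01 and 11.64.

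Steroidogenesis held the named clone of largest rise. Of its 11 clones, for 10 genes, 6 rose, 3 fell and 2 were not called, with a median change of 1.48. The protein of star moves cholesterol into mitochondria, where steroid synthesis starts. The gene read 8.12, 7.79, 7.71 and 7.84 in stage V and 10.75, 11.66 and 12.40 in stage VIII, and its rise of 3.74 (13.4-fold, SE 0.34, adjusted p = 8.1e-11) was 3.44 with low signals raised. The enzyme of cyp17a1 leads from progestins to androgens. It had 8.67, 8.63, 8.41 and 8.82 in stage V and 11.15, 11.80 and 12.02 in stage VIII, a rise of 3.02 (SE 0.26, adjusted p = 1.9e-11). For both genes the stages were far apart, and stage VIII replicate 1 was the lowest spawning array.

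Other enzymes of the pathway rose less. The gene hsd3b1, for the dehydrogenase that forms progesterone, had 8.82, 8.93, 9.05 and 8.95 in stage V and 9.91, 10.74 and 10.68 in stage VIII (change 1.51, SE 0.23, adjusted p = 2.3e-06). The hydroxylase gene cyp11b, which serves the 11-oxygenated androgens of fish, had 7.52, 7.49, 7.36 and 7.28 in stage V and 8.38, 9.22 and 9.08 in stage VIII (change 1.48, SE 0.28, adjusted p = 6.5e-05). All its stage V signals were under background, and with these raised the change was 0.73. The dehydrogenase gene hsd11b2, whose product inactivates cortisol and in fish also acts in the synthesis of 11-ketotestosterone, had 8.06, 8.13, 8.40 and 7.92 in stage V and 10.78, 10.31 and 10.95 in stage VIII (change 2.55, SE 0.23, adjusted p = 8.1e-11). None of the genes overlapped between the stages.

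Set beside stage I, the order differed by gene. Stage I means were 9.54 for star, 10.45 for cyp17a1 and 9.81 for hsd11b2, each below its spawning mean of 11.61, 11.66 and 10.68. Those of hsd3b1 and cyp11b, 10.42 and 8.84, were close to their spawning means of 10.44 and 8.90. These differences were not tested. In isolated spermatocytes the means of the 5 genes ran from 7.46 to 9.15.

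The members that fell were hormone-sensitive lipases, which free cholesterol and fatty acids from stored esters. The lipe1 clone tcbk0057.o.14 read 8.57, 9.37, 8.84 and 9.12 in stage V and 8.85, 7.70 and 7.29 in stage VIII, so that 1 spawning array lay inside the stage V range (change -1.03, SE 0.36, adjusted p = 0.0219). Clone tcbk0025.o.05 changed by -0.88 (SE 0.30, adjusted p = 0.0182) and lipea by -1.15 (SE 0.30, adjusted p = 0.00266). With low signals raised, the change was -0.40 for lipea (adjusted p = 0.031) and -0.58 for tcbk0057.o.14, which was then not called (adjusted p = 0.11). Both lipe1 calls were lost without stage V replicate 2 (adjusted p of 0.056 and 0.071), stage VIII replicate 2 (0.086 and 0.095) or stage VIII replicate 3 (0.091 and 0.18), with changes between -0.91 and -0.70, and that of lipea without stage VIII replicate 2 (-0.85, adjusted p = 0.051). The cholesterol-binding protein gene tspo (change 0.20) and the carbonyl reductase gene cbr1 (-0.35) were not called.

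Hormone and growth factor receptors rose in 5 of 10 clones and fell in 0, with a median change of 0.53. The luteinising hormone receptor gene lhcgr, counted among the steroidogenesis clones as well, read 7.81, 7.86, 7.64 and 7.86 in stage V and 9.48, 9.40 and 9.76 in stage VIII (change 1.76, SE 0.21, adjusted p = 4.4e-08, or 1.38 with low signals raised). Its stage I mean was 7.82, as low as that of stage V, 7.79. The estrogen receptor gene esr1 had 6.94, 7.03, 7.02 and 7.39 in stage V and 9.26, 10.06 and 8.68 in stage VIII (change 2.24, SE 0.27, adjusted p = 4.4e-08, or 1.17 with low signals raised), and likewise a low stage I mean, 7.22. Its spawning arrays were spread more widely than those of lhcgr.

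The co-receptor gene tgfbr3, whose protein binds transforming growth factor beta and inhibin in mammals, had 7.37, 7.32, 7.45 and 7.11 in stage V and 9.24, 9.06 and 8.87 in stage VIII (change 1.74, SE 0.22, adjusted p = 5.8e-08, or 0.89 with low signals raised). The growth hormone receptor clones ghr and ghr1 rose by 0.90 (SE 0.15, adjusted p = 1.2e-05) and 0.72 (SE 0.17, adjusted p = 0.00073), the former by 0.32 with low signals raised. Not called were the second estrogen receptor esr2a (change 0.11), the glucocorticoid receptor clones of nr3c1 (0.03 and -0.15), tgfbr2 (0.35) and pparg (-0.42), which was called lower without stage V replicate 1 (-0.48, adjusted p = 0.041) or stage VIII replicate 3 (-0.60, adjusted p = 0.012).

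Of 9 clones for hormones, growth factors and their binding proteins, 8 lay under background in both stages, 3 rose and 0 fell, with a median change of 0.05. The exception in level was igfbp7, for a secreted protein related to the insulin-like growth factor binding proteins. It read 8.44, 8.26, 8.29 and 8.28 in stage V and 10.56, 10.31 and 10.12 in stage VIII (change 2.01, SE 0.29, adjusted p = 7.8e-07), with means of no more than 7.53 in the fractions. The rises of igfbp3 (1.00, adjusted p = 0.00181) and of the growth factor gene igf2b (0.50, adjusted p = 0.0208) came to 0.04 and 0.00 with low signals raised. The call of igf2b was also lost without stage VIII replicate 2 (0.35, adjusted p = 0.18) or 3 (0.48, adjusted p = 0.063).

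The clone with the symbol inh, for inhibin, a Sertoli cell hormone that restrains follicle-stimulating hormone, stood outside the lists but among the largest rises. It read 9.36, 9.38, 9.71 and 8.74 in stage V and 11.63, 12.13 and 11.66 in stage VIII (change 2.51, SE 0.44, adjusted p = 1.8e-05). Stage I had a mean of 10.36, and the spermatogonial, spermatocyte and spermatid fractions had 8.18, 7.43 and 7.65.

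Sertoli cell markers rose in 4 of 6 clones and fell in 0, with a median change of 1.18. All 6 lay higher without overlap, beside 23.9% of all clones. No clone of the Sertoli cell gene amh was found among the values used here. The study reports that amh staining of Sertoli cells weakened in maturing testes and at spawning, and describes its array profile of amh likewise. It also measured amh by qPCR and counts it among somatic genes with apparent down regulation over the cycle. The regulator of male sex differentiation dmrt1 had 8.81, 8.59, 8.99 and 8.83 in stage V and 9.76, 9.88 and 10.16 in stage VIII (change 1.13, SE 0.17, adjusted p = 2.3e-06). For sox9, another transcription factor of the male gonad, the signals were 7.64, 7.67, 7.75 and 7.67 in stage V and 9.07, 8.42 and 9.25 in stage VIII (change 1.23, SE 0.21, adjusted p = 1.3e-05, or 0.74 with low signals raised). The related clone sox9i was not called (0.41), but was with the 7 arrays alone (adjusted p = 0.022). Clusterin, clu, a protein that Sertoli cells secrete, read 8.28, 7.85, 8.86 and 8.53 in stage V and 8.87, 9.28 and 9.54 in stage VIII. Its change of 0.85 was not called (SE 0.39, adjusted p = 0.0865), but was with the 7 arrays alone (adjusted p = 0.014). Stage I lay far higher, at 11.20. The basic helix-loop-helix gene tcf23, the single clone on the list of smooth muscle and peritubular cells, had 8.79, 8.61, 8.73 and 8.64 in stage V and 10.12, 10.90 and 10.43 in stage VIII (change 1.79, SE 0.25, adjusted p = 4.9e-07).

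The Sertoli list counts 2 clones of the keratin gene krt18, and keratins, the filament proteins of epithelia, were also grouped after their values were seen. Of 9 clones 7 rose and 0 fell. The krt18 clone tcba0018.b.14 read 10.60, 9.90, 10.57 and 10.06 in stage V and 12.26, 12.37 and 12.47 in stage VIII (change 2.09, SE 0.45, adjusted p = 0.00036), and 1rt100c06_c_b03 rose by 1.66 (adjusted p = 0.00053). Rises of 1.73, 1.59, 1.48 and 1.31 were found for e3, krt79, s1 and e1. The clones of s8 differed: tcav0001.k.15, fitted without stage V replicate 1, where it had no value, rose by 0.85 (adjusted p = 0.00681), and tcav0004.c.14, near the top of the signal range at 13.09 in stage V, changed by -0.05 (adjusted p = 0.88).

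Matrix genes rose in 4 of 8 clones and fell in 0, with a median change of 0.76. The collagen I gene col1a1 had 11.04, 10.43, 11.28 and 11.03 in stage V and 11.81, 12.61 and 12.53 in stage VIII (change 1.37, SE 0.30, adjusted p = 0.00046), and spawning testes came close to the stage I mean of 12.49. The col1a1b clone tcay0027.n.15 rose by 1.16 (SE 0.26, adjusted p = 0.00053), while 1rt65f10_d_c05, near the top of the range at 13.13 in stage V, was not called (-0.16, adjusted p = 0.773). The rise of col1a2 by 0.79 (adjusted p = 0.023), with overlapping stages, was lost without stage V replicate 2 or 4 (0.72 and 0.70, adjusted p of 0.062 and 0.068) and without stage VIII replicate 2 or 3 (0.68 and 0.69, adjusted p of 0.11 and 0.094). The protease gene mmp9 rose by 1.44 (SE 0.42, adjusted p = 0.00664), from 7.82 to 9.27, or by 1.10 with low signals raised.

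**Figure D2:**
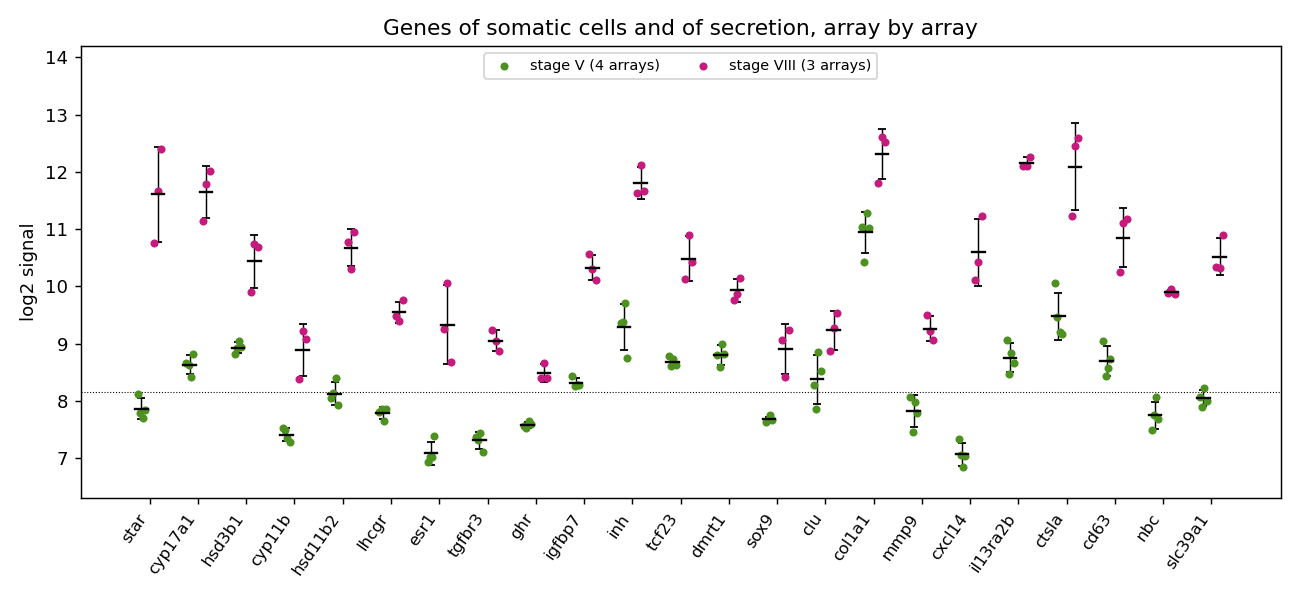
Log2 signal of named clones on each of the 4 arrays of stage V (green) and the 3 of stage VIII (pink), with the mean as a bar, the SD as whiskers and the array median of 8.17 as a dotted line. The stages do not overlap for any clone shown, from star (means 7.86 and 11.61) to clu (8.38 and 9.23), which was not called.

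Red blood cell markers rose in 10 of 10 clones, with a median change of 2.78. The alpha globin gene hba1 read 9.72, 9.37, 9.78 and 8.87 in stage V and 12.78, 13.22 and 13.22 in stage VIII (change 3.64, SE 0.50, adjusted p = 4.4e-07). The 4 clones of hba4 rose by 2.82 to 3.66, hbb1 by 2.15, the hbb4 clones by 2.74 and 0.92, the carbonic anhydrase gene cahz by 2.55 and the anion exchanger gene ae1 by 2.15. All stage V signals of ae1 were under background, and its change was 0.76 with these raised. The mean log2 signal of the 10 clones ranged from 9.10 to 9.83 over the stage V arrays and from 12.17 to 12.28 over the stage VIII arrays. Every rising group given here rose between the same stages, so a rise shared with these markers follows from the choice of groups. The part of these markers in those results was not tested.

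Of 29 immune cell marker clones 6 rose (20.7%), 2 fell (6.9%) and 14 lay under background in both stages, with a median change of 0.13. The share that rose was near the 18.1% of all clones, and 19.3% of all clones fell. The mean log2 signal of the list ranged from 7.84 to 7.94 in stage V and from 8.21 to 8.37 in stage VIII. No clone with the symbol ptprc, cd74 or ighm was found among the symbols used here, which cover 680 of the 9024 clones. The chemokine gene cxcl14 had 7.33, 7.06, 6.84 and 7.04 in stage V and 10.11, 10.43 and 11.24 in stage VIII (change 3.53, SE 0.25, adjusted p = 2.1e-13, or 2.43 with low signals raised). The gene il13ra2b, whose mammalian counterpart encodes a decoy receptor for interleukin 13, had 9.06, 8.48, 8.83 and 8.66 in stage V and 12.10, 12.11 and 12.27 in stage VIII (change 3.40, SE 0.34, adjusted p = 1e-09). Both stood apart from the rest of the list, and their stage I means were 7.90 and 10.08.

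Smaller rises within the immune list were 2.15 for cd63, a tetraspanin of lysosomal membranes in many cell types, 1.12 for the cytokine receptor chain il2rgamma, 1.01 for socs1, which restrains cytokine signals, and 0.93 for the transcription factor stat5. With low signals raised, the changes of il2rgamma and stat5 were 0.57 and 0.34. The interleukin receptor family gene il1rl1 changed by -0.92 (adjusted p = 0.00017). The interferon regulatory factor irf3 changed by -0.81 (adjusted p = 0.00033), or by -0.08 with low signals raised, where it was not called (adjusted p = 0.36).

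Early response and cytokine signalling genes, grouped after their values were seen, rose in 8 of 12 clones and fell in 0. The lowest change of the group, -0.638 and not called, was that of socs3, which the immune list counts too. Besides keratins, the lysosome (6 of 11 clones higher, 0 lower) and NADPH oxidase (1 of 7 higher, 2 lower) were grouped this way. So were RNA polymerase and general transcription factors (0 of 10 higher, 8 lower). The AP-1 component jun read 7.43, 7.67, 7.53 and 7.38 in stage V and 8.72, 9.29 and 9.57 in stage VIII (change 1.69, SE 0.23, adjusted p = 4.4e-07, or 1.03 with low signals raised). The transcription factor cebpd rose by 1.71 (SE 0.21, adjusted p = 3.5e-08) and the growth arrest gene ga45b by 1.53 (SE 0.21, adjusted p = 2.6e-07, or 1.14 with low signals raised). The rise of cebpb by 1.14 (adjusted p = 0.0196) was lost without stage VIII replicate 2 (1.12, adjusted p = 0.055) or 3 (0.85, adjusted p = 0.14), and with low signals raised (0.27, adjusted p = 0.55).

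Among transporters and lysosomal genes, the bicarbonate cotransporter gene nbc had closely spaced spawning arrays, with 7.50, 7.75, 8.07 and 7.69 in stage V and 9.88, 9.95 and 9.87 in stage VIII (change 2.15, SE 0.15, adjusted p = 2.1e-13, or 1.73 with low signals raised). Its means in stage I and the fractions lay between 7.62 and 7.68. The zinc transporter gene slc39a1 had 8.07, 7.90, 8.23 and 7.99 in stage V and 10.34, 10.33 and 10.90 in stage VIII (change 2.48, SE 0.32, adjusted p = 1.1e-07), and spermatogonia had a mean of 9.71. Water and ion transport as a list, which does not hold nbc, rose in 3 of 9 clones and fell in 0, with a median change of 0.45. Those that rose were slc39a1, ae1, also counted as a red blood cell marker, and a dim clone. The change of the dim clone, 0.605, came to 0.005 with low signals raised and was then not called (adjusted p = 0.08). The lysosomal protease gene ctsla read 10.06, 9.47, 9.21 and 9.17 in stage V and 11.23, 12.46 and 12.60 in stage VIII (change 2.62, SE 0.36, adjusted p = 4.4e-07). The antioxidant enzyme gene gpx1 rose by 1.80 (SE 0.24, adjusted p = 1.9e-07, or 1.46 with low signals raised) and the fatty acid binding protein gene fabp3 by 1.25 (SE 0.30, adjusted p = 0.00113).

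Genes of the axoneme, flagellum and centriole fell in 5 of 5 clones, with a median change of -1.59. The thioredoxin domain gene txndc6 had 10.92, 11.25, 10.83 and 11.04 in stage V and 9.59, 7.41 and 7.12 in stage VIII (change -2.97, SE 0.41, adjusted p = 4.1e-07). The centrin gene cetn4, for a calcium-binding protein of centrioles, had 10.58, 10.72, 10.24 and 10.69 in stage V and 9.13, 8.12 and 8.02 in stage VIII (change -2.14, SE 0.26, adjusted p = 5.8e-08). In both, stage VIII replicate 1 was the highest spawning array and still below each stage V array. The spermatogenesis gene spata4 changed by -1.59, and the clones of ift122, for a subunit of intraflagellar transport, by -1.40 and -1.44. With low signals raised, the changes were -2.37 for txndc6, -2.07 for cetn4, -0.93 for spata4 and -1.10 and -1.01 for ift122. All 5 clones were higher in spermatocytes and in spermatids than in stage I. The mean log2 signal of the list was 8.63 on stage VIII replicate 1, 7.64 and 7.49 on the other spawning arrays and 9.65 to 10.04 in stage V.

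Meiosis was represented by sycp3, for a protein of the synaptonemal complex that joins paired chromosomes. It read 10.97, 11.46, 11.35 and 11.53 in stage V and 9.22, 7.93 and 8.18 in stage VIII, a change of -2.89 (7.40-fold lower, SE 0.36, adjusted p = 5.5e-08). Its means were 9.17 in stage I, 10.46 in spermatocytes and 11.14 in spermatids. The chromatin protein gene hmgb1a changed by -1.57 (SE 0.21, adjusted p = 3.6e-07) and the replication protein gene rpa3 by -1.34 (SE 0.22, adjusted p = 6.3e-06).

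The germ line list split, with 1 of 4 clones lower and 2 higher. The germ cell RNA helicase gene ddx4, known as vasa, had 11.36, 11.72, 11.61 and 11.47 in stage V and 9.41, 9.28 and 8.87 in stage VIII (change -2.35, SE 0.21, adjusted p = 7.8e-11). The gene piwil2, for a Piwi protein that acts against transposons, had 8.90, 8.38, 8.62 and 8.72 in stage V and 8.36, 8.33 and 8.57 in stage VIII. Its stages overlapped and it was not called (change -0.24, SE 0.19, adjusted p = 0.343). Spermatogonia had the highest mean of both genes among stage I and the fractions, 12.17 and 9.67. The surface lectin gene ly75, a marker of trout spermatogonia and in mammals of dendritic cells, rose by 1.06 (SE 0.23, adjusted p = 0.00044), and nanos3, for an RNA-binding repressor of early germ cells, by 0.64 (SE 0.20, adjusted p = 0.00901). Both started under background, and with low signals raised the changes were 0.55 and 0.20.

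**Figure D3:**
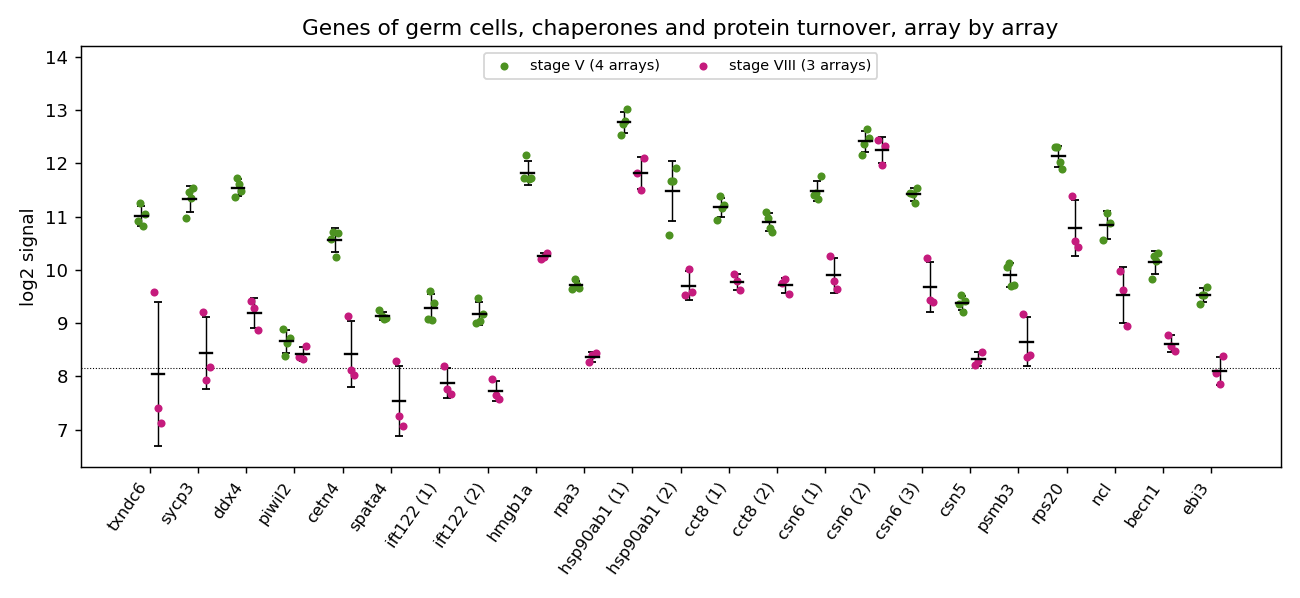
Log2 signal of clones of germ cell, chaperone, protein turnover and other genes on each array of stage V (green, up to 4) and stage VIII (pink, 3), with the mean as a bar, the SD as whiskers and the array median of 8.17 as a dotted line; numbers in parentheses tell clones of a gene apart. For txndc6 one spawning array (9.59) lies well above the others (7.41 and 7.12), and the stages overlap for piwil2 and for csn6 clone 1rt118k04_c_f02.

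Ribosomal proteins fell in 10 of 24 clones and rose in 0, with a median change of -0.44. Without overlap, 18 of the 24 clones lay lower, beside 25.3% of all clones. The gene rps20 had 12.30, 12.30, 12.01 and 11.90 in stage V and 11.39, 10.54 and 10.42 in stage VIII (change -1.34, SE 0.29, adjusted p = 0.00036). Its means in stage I and the fractions lay between 12.13 and 12.32. Of the 24 clones, 1 was higher and 1 lower in spermatocytes than in stage I. Translation factors fell in 3 of 10 clones and rose in 0, with a median change of -0.42. The clones that fell encode subunits of initiation factor 3, eif3c (-0.93), eif3h (-0.76) and 1 of 2 clones of eif3e (-0.52). The call of eif3h was lost without any of stage V replicates 1 and 4 and stage VIII replicates 1, 2 and 3 (changes of -0.80 to -0.66, adjusted p between 0.052 and 0.078).

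RNA processing and ribosome biogenesis fell in 9 of 13 clones, ddx4 among them, and rose in 0, with a median change of -0.51. The RNA-binding protein gene hnrnpa0 changed by -1.31 (SE 0.27, adjusted p = 0.0002). Subunits of RNA polymerase II changed by -0.72 and -0.54 for polr2g, -0.71 for polr2j and -0.64 for polr2i. These calls were fragile. That of polr2g clone tcac0004.p.22 was lost without any array of either stage other than stage V replicate 3 (-0.57 to -0.47, adjusted p between 0.058 and 0.11), that of polr2i without stage V replicate 2 or 4 or stage VIII replicate 1 or 3 (-0.62 to -0.57, adjusted p between 0.058 and 0.1), and that of polr2j without stage VIII replicate 1 (-0.53, adjusted p = 0.095). For polr2g clone tcbi0012.n.20 the change was -0.12 and not called with low signals raised (adjusted p = 0.69). The nucleolin gene ncl, for an abundant nucleolar protein, changed by -1.31 (SE 0.35, adjusted p = 0.00274), fitted without stage V replicate 1, where it had no value.

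Chaperones fell in 7 of 19 clones and rose in 1, with a median change of -0.37. The cytosolic heat shock protein gene hsp90ab1 changed by -0.96 (SE 0.15, adjusted p = 3.5e-06) and -1.77 (SE 0.35, adjusted p = 0.00011) in its 2 clones, and its relative hsp90bb by -1.29 and -1.15. The chaperonin gene cct8, whose complex folds tubulin and actin, had 10.94, 11.38, 11.16 and 11.21 in stage V and 9.92, 9.79 and 9.61 in stage VIII for clone 1rt36f13_b_c07 (change -1.40, SE 0.22, adjusted p = 4e-06) and changed by -1.19 in the other. In spermatogonia the cct8 clones had means of 12.08 and 11.87. The heat shock gene hspa8 rose in clone tcag0004.m.01 (0.69, adjusted p = 0.00019) and was not called in tcaa0002.o.09 (-0.49, adjusted p = 0.107).

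Proteasome, signalosome and ubiquitin genes fell in 7 of 13 clones and rose in 0, with a median change of -0.49. The signalosome takes the ubiquitin-like protein Nedd8 off cullin ligases. Its subunit gene csn6 changed by -1.58 (SE 0.19, adjusted p = 2e-08) in clone 1rt115j05_b_e03 and by -1.73 (SE 0.22, adjusted p = 1.1e-07) in tcad0006.o.02, but the brighter 1rt118k04_c_f02 overlapped between the stages (-0.17, adjusted p = 0.61). The subunit gene csn5 changed by -1.05 (SE 0.24, adjusted p = 0.00053) and the proteasome gene psmb3 by -1.25 (SE 0.24, adjusted p = 9.8e-05). The autophagy gene becn1 read 9.84, 10.26, 10.17 and 10.31 in stage V and 8.79, 8.57 and 8.48 in stage VIII (change -1.53, SE 0.29, adjusted p = 5.5e-05). The clone of ebi3, a cytokine subunit in mammals, changed by -1.43 (SE 0.16, adjusted p = 4.5e-09).

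Oxidative phosphorylation had 2 of 11 clones higher (18.2%) and 1 lower (9.09%), with a median change of -0.21. Over all clones the shares were 18.1% and 19.3%. The complex I gene ndufa2 rose in clone 1rt112b18_d_a09 (1.22, adjusted p = 4.2e-05) and was not called in tcbk0057.c.07 (-0.32, adjusted p = 0.286). The glycolytic gene gapdh rose in clone tcan0001.o.05 (0.88, adjusted p = 0.0182), a call lost without stage VIII replicate 2 (0.75, adjusted p = 0.095), and was not called in tcaa0001.e.20 (0.38, adjusted p = 0.09).

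**Figure D4:**
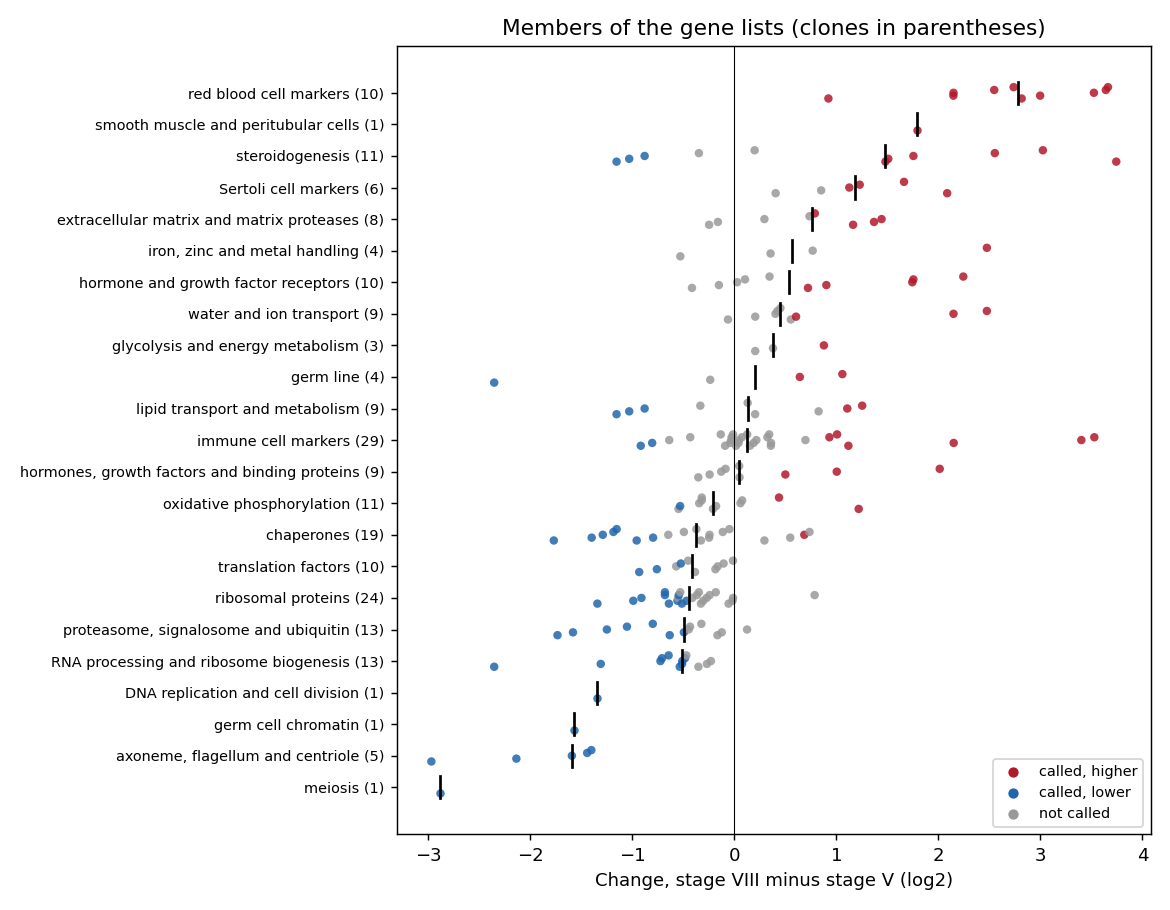
Change in log2 signal, stage VIII minus stage V, of each clone (point) of the gene lists, coloured by call, with the list median as a black bar. List medians run from -2.89 for the single meiosis clone to 2.78 for the 10 red blood cell clones.

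For 78 genes with several clones, the calls of all clones were alike in 50 genes, of which 8 rose, 8 fell and 34 were not called. In 28 genes some clones were called and others not, and in 0 genes were clones called in opposite directions. One of the wider splits was dcnl1, for a protein of the Nedd8 pathway, in which tcak0002.a.22 rose by 1.90 (SE 0.26, adjusted p = 3e-07) and tcay0031.o.16 changed by -0.30 (adjusted p = 0.209).

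The isolated cells show where the called clones were measured outside the compared stages. Spermatocytes were set against stage I, a comparison that shares no array with stages V and VIII, in which 1646 clones (18.2%) were higher and 1668 (18.5%) lower. Of the 1635 clones that rose at spawning, 876 (53.6%) were lower in spermatocytes and 86 (5.26%) higher, and the 876 made up 52.5% of all clones lower there. Of the 1743 that fell, 764 (43.8%) were higher in spermatocytes and 49 (2.81%) lower, and the 764 made up 46.4% of all clones higher there. With low signals raised to the array median, 564 of 1378 clones that rose were lower in spermatocytes, in place of 876 of 1635. Of 1258 that fell, 549 were then higher there, in place of 764 of 1743. The shares of all clones in spermatocytes are not given for this setting. The overlap of the lists was not tested.

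The other fractions divided the clones in the same directions. All fractions were set against the same stage I arrays, so these counts are not independent of each other. Of the clones that rose, 643 (39.3%) were lower in spermatogonia than in stage I, against 13.2% of all clones, and 715 (43.7%) were lower in spermatids, against 14.9%. Of those that fell, 602 (34.5%) were higher in spermatogonia, against 13.4% of all clones, and 611 (35.1%) were higher in spermatids, against 14.4%. From stage IIb to stage IIIb, when spermatocytes accumulate, 354 clones (3.92%) rose. Of these, 313 (88.4%) fell from V to VIII, against 19.3% of all clones, and 0 rose. In the same step 281 clones (3.11%) fell. Of these, 187 (66.5%) rose from V to VIII, against 18.1% of all clones, and 0 fell.

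**Figure D5:**
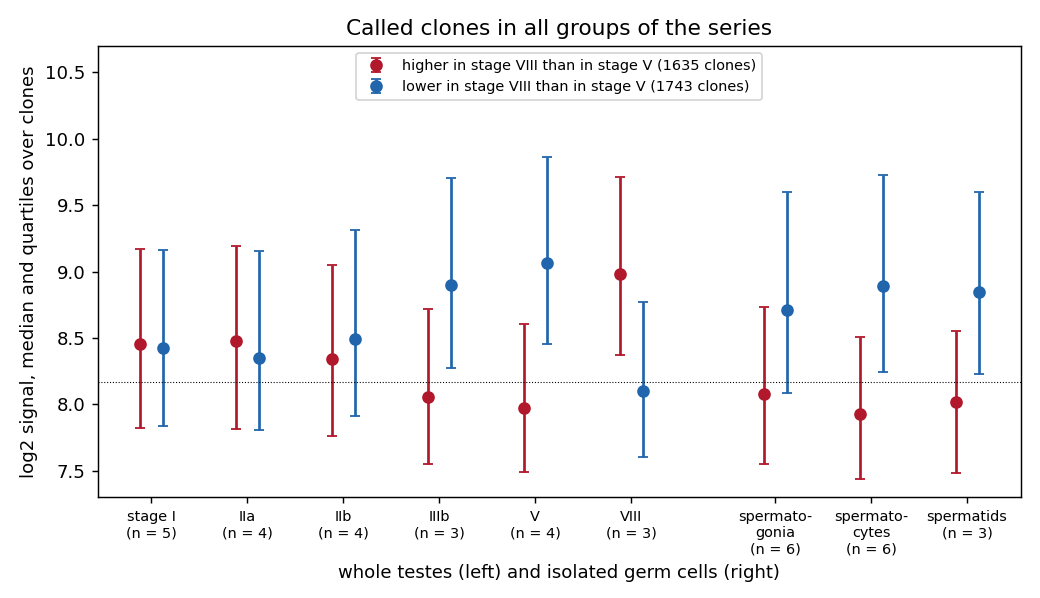
Median over clones of the group mean log2 signal, with quartiles as whiskers, for the 1635 clones that rose (red) and the 1743 that fell (blue) from stage V to stage VIII, in 6 testis stages and 3 germ cell fractions, with the array median as a dotted line. Stages V and VIII chose the clones and differ by construction; the medians are close in stage I (8.46 and 8.42) and apart in spermatocytes (7.93 and 8.89).

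The spawning arrays differed in their distance from stage V. With each clone centred over the arrays, stage VIII replicate 1 correlated with the stage V arrays at -0.13 to -0.05 and replicates 2 and 3 at -0.37 to -0.29, across clones, which are not independent. Stage VIII replicate 1 was the spawning array nearest to the stage V mean for 783 of the 1635 clones that rose and 924 of the 1743 that fell. Without this array 1492 clones rose and 1530 fell, of which 1392 and 1455 were called the same way with it.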

How the data were processed

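Radiolabelled cDNA of each sample was hybridised on a nylon array of its own. The authors corrected the scanned signals for the amount of spotted DNA with a vector hybridisation, took log2 and quantile normalised the arrays, and the log2 values were used as deposited. Their filter on low vector signal was not applied. Of 9216 positions 192 were empty, 190 clones lacked a value on at least 1 array and 169 of these on stage V replicate 1.

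One limma model (version 3.58.1, R 4.3.3) with a mean for each group was fitted to all 38 arrays, so that all groups shared the estimate of the spread, with Benjamini-Hochberg adjustment over 9024 clones and a threshold of 0.05. Groups were taken from the titles. The array median was 8.17, and 3590 clones had means under it in both stages. In data simulated for stage VIII against stage V on 8834 clones, 18% of 50 changes of 0.5, 92% of 50 of 1, 100% of 50 of 2 and 88% of 50 of -1 were recovered, with 10 false calls. Only these clones carried a change there, a far smaller share than the 37.4% called in the data. The simulated noise was normal, with the same spread in every group. These rates therefore cannot be carried over to the comparison itself.

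Symbols came from the array description for 677 clones, of which 669 matched the RefSeq gene table, used for names alone, and from clone names in the study for others, to give 680. 1 clone with several symbols was not named. Genes were named from the gene lists, from clones the study names and from the 25 clones of largest change in each direction. The last of these needed a symbol other than a locus number. Members of the groups formed after their values were seen, such as keratins and early response genes, were named as well. Not every clone that met the rule is named in the text. Members, lists and this rule were chosen with earlier results of these data known. Alternatives were array weights, raised or omitted dim signals, other scaling, an intensity trend, the 7 arrays alone, these with a replicate block and leaving out each array.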

Additional observations from a re-analysis of the deposited data

Results flagged for a closer look

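Of 110 named clones tested for a stage V array far from the other 3, 4 had one, by Dixon's ratio of gap to range past its critical value, which chance passes in about 1 in 20 groups. The 3 arrays of stage VIII were too few for this test. For dcnl1 (clone tcak0002.a.22), stage V replicate 1 read 8.358 and the others 8.026 to 8.065 (ratio 0.88). For igfbp7, stage V replicate 1 read 8.435 and the others 8.264 to 8.288 (ratio 0.862). For hmgb1a, stage V replicate 2 read 12.154 and the others 11.695 to 11.719 (ratio 0.948). For gapdh (clone tcaa0001.e.20), stage V replicate 3 read 9.713 and the others 9.494 to 9.524 (ratio 0.865).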

How the results depend on the processing

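No clone called between stages V and VIII was called in the opposite direction under any of the 15 alternatives. Leaving out each array in turn gave 2682 to 3113 clones changed, 1319 to 1513 higher and 1363 to 1600 lower, with 744 to 839 higher clones that were lower in spermatocytes and 662 to 736 lower clones that were higher there. Array weights gave 2326 clones higher and 2473 lower, the 7 arrays alone 1992 and 2127, omission of dim clones 1408 and 1557, low signals raised to the array median 1378 and 1258, and an intensity trend with a robust prior 1631 and 1741. Median centring and a renewed quantile normalisation left 1635 and 1743. The deposited values were already quantile normalised, so these moved them by at most 8.24e-06 and 0.0134. They are counted among the 15 alternatives but could not test the scaling. With the 7 arrays alone, sox9i (adjusted p = 0.022), clu (0.014), gapdh clone tcaa0001.e.20 (0.03) and eif3e clone 1rt71d05_b_b03 (0.011) gained a call. With low signals raised, the higher clones that were lower in spermatocytes numbered 564 of 1378, in place of 876 of 1635. The cause was not tested.

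Of 113 clones of the named genes, 95 were called and 82 of these under every alternative in which they were fitted. Clones dim in both stages, such as igfbp3, were absent from the fit that omitted dim clones. The changes of uncalled clones turned sign in 5 cases, each a clone in a fit that left out an array. That of esr2a went to -0.013 (range -0.013 to 0.199). For nr3c1 clone 1rt85i16_c_e08 it went to -0.017 and -0.107 (range -0.107 to 0.14). For s8 clone tcav0004.c.14 it went to 0.009 without stage VIII replicate 1 (range -0.126 to 0.009). For tspo it went to -0.015 without stage VIII replicate 3 (range -0.015 to 0.358). Ranges are over the fits with each array left out. The labels do not say what the replicate numbers stand for. Same-numbered arrays of the stages had deviations correlated at 0.037, -0.039 and 0.141 across clones, and differently numbered arrays at -0.133 to 0.154. So few arrays cannot show whether same-numbered arrays were paired or shared a batch. A replicate block, fitted to the 7 arrays alone, gave 3524 calls, 1721 higher and 1803 lower. Without the block these arrays gave 4119 calls, 1992 higher and 2127 lower. Set against the main fit, igf2b (0.48, adjusted p = 0.057) and lipe1 clone tcbk0057.o.14 (-0.98, adjusted p = 0.05) lost their calls under the block. Calls were gained by clu (0.90, adjusted p = 0.0076), hspa8 clone tcaa0002.o.09 (-0.60, adjusted p = 0.018) and eif3e clone 1rt71d05_b_b03 (-0.44, adjusted p = 0.047). The clu and eif3e clones gained theirs with the 7 arrays without a block as well. Block and 7-array fits were not run for the spermatocyte counts. Signals near background limit the changes of dim clones, and the top of the signal range, 13.38, those of bright ones.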
